A study of Homo sapiens with 6 samples.

Results

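A set of 10 genes that mark the epithelial and mesenchymal states of carcinoma cells was followed in polysome RNA of 3 breast cancer cell lines: VIM, AXL, CD44, CAV1, SNAI2, ZEB1, TWIST1, CDH1, CDH2 and FN1. They were chosen by gene symbol, and all 10 were found among the 30726 symbols of the deposited RPKM table (reads per kilobase of transcript, relative to the size of the library). Polysome RNA is the RNA that sediments with strings of ribosomes in a sucrose gradient. RNA of the whole lysate was not analysed here, so the amount of an mRNA and its loading with ribosomes cannot be told apart, and nor can fewer cells of a type and less RNA per cell.

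The libraries came from SUM1315 (a triple negative line, grown with insulin and EGF), SKBR3 (luminal, HER2+) and T47D (luminal A, grown with insulin), each of wild-type genotype per the labels and each in its own medium. Hypoxic cells had 8 hours at 1% O2 and normoxic cells were kept at 21% O2, and all cells received cycloheximide before lysis. Every line gave 1 library per oxygen level, 6 in all. The study asked how low oxygen alters which transcripts are translated. Medium and line cannot be told apart, and nothing in the labels says that a line was grown in more than 1 culture per oxygen level.

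In the epithelial to mesenchymal transition (EMT), epithelial cells lose the junctions built on E-cadherin and take up a spindle form with vimentin filaments. Transcription factors of the Snail, ZEB and TWIST families drive it and repress CDH1, the E-cadherin gene, through E-box sequences. In breast cancer, lines of mesenchymal form are known for high vimentin, AXL, CD44 and caveolin-1, and luminal lines for E-cadherin and keratins.

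From the steps in the values, 1 RPKM equalled 21.7 to 33.4 reads for each kilobase, and between 9675 and 10842 genes a library were at 1 RPKM or higher. The receptor genes fitted the labels of the lines: ERBB2, which encodes HER2, stood at 743 and 615 RPKM in SKBR3 and at most 8.76 RPKM elsewhere, and PGR, the progesterone receptor gene, at 11.0 and 9.94 RPKM in T47D. The basal keratins KRT5, KRT14 and KRT17 were listed at 0 in both SUM1315 libraries. EGFR, also checked as a basal gene, was at 2.84 and 2.00 RPKM there and at most 0.417 RPKM in T47D. On the log2(RPKM + 1) scale EGFR was higher in SUM1315 than in T47D by 1.38 (limma, adjusted p = 0.00556). Against SKBR3 the difference was -0.30 ± 0.32 and did not pass (limma, adjusted p = 0.429), so EGFR did not set SUM1315 apart from both luminal lines. The summed level of 5 leukocyte markers was at most 1.86 RPKM and that of 4 endothelial markers at most 1.03 RPKM in any library. Of 6 hypoxia response genes used as a check, all 5 that could be tested rose, among them SLC2A1, the glucose transporter gene, by 2.46 on the log2(RPKM + 1) scale (limma, adjusted p = 0.000545).

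Of the 10 genes, 7 (VIM, AXL, CD44, CAV1, SNAI2, ZEB1 and TWIST1) were far higher in both SUM1315 libraries than in any library of the luminal lines. In the fit described below, 7 of the 9 members tested were called higher in SUM1315 against each luminal line, 4 through SUM1315 alone. Among all genes tested, 44.0% were called higher in SUM1315 than in SKBR3 and 41.2% than in T47D (limma, adjusted p under 0.05), so being higher in SUM1315 was common. The share of all genes with both SUM1315 values above every luminal value was not computed. CDH2 was higher in SUM1315 as well, but at a level near 1 RPKM. CDH1 was high in T47D alone, and FN1 was low in all 3 lines and highest in SKBR3. Under hypoxia, none of the 9 genes that could be tested passed across the 3 lines (1.70% of all genes were called higher and 0.544% lower), and VIM in SUM1315 had the largest within-line ratio among those at 1 RPKM or more.

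**Figure D1:**
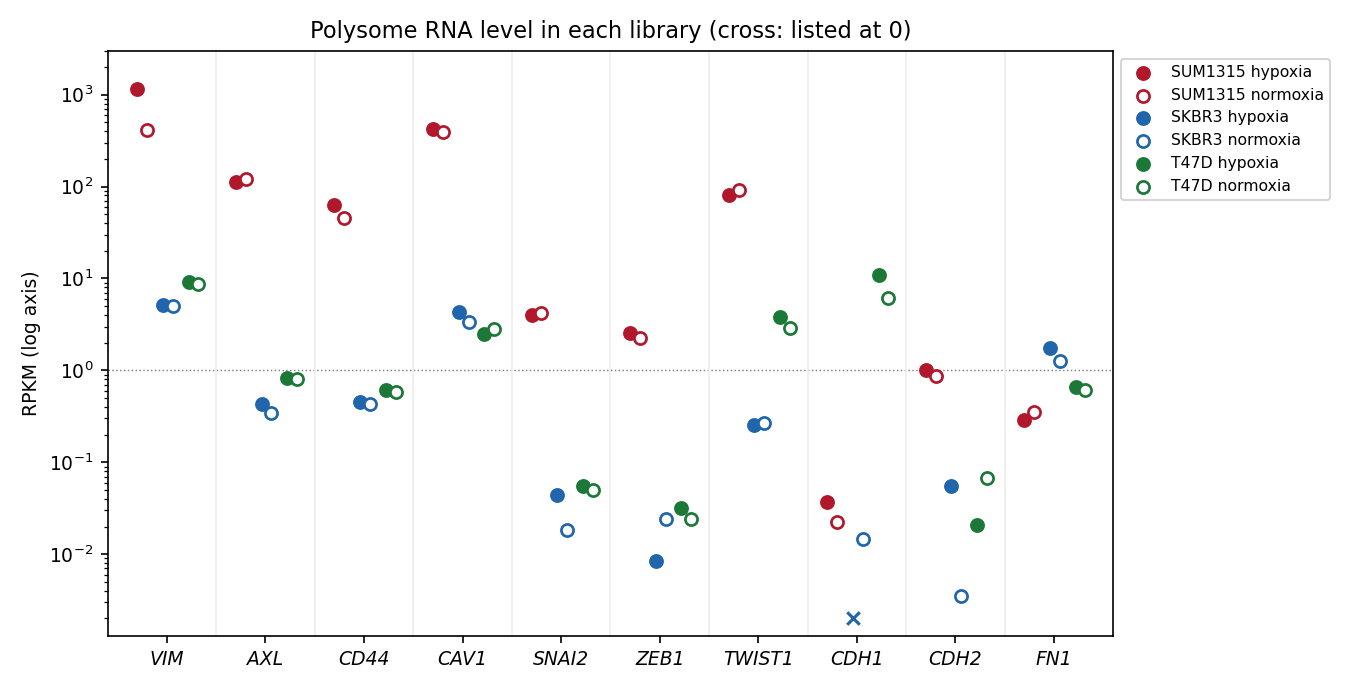
RPKM (log axis) of each of the 10 genes in the 6 libraries, with hypoxic libraries as filled and normoxic libraries as open symbols in each line, a cross for the value listed at 0 and a dotted line at 1 RPKM. The SUM1315 points of VIM lie at 1161 and 407 RPKM, and no SKBR3 or T47D point of VIM exceeds 9.17 RPKM.

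The promoters of the 4 most abundant filament and surface genes are shown first, since these genes are among those with the largest differences between the lines. Each window holds the 250 bases before the RefSeq start in the direction of the gene (GRCh38.p14), with matches to the searched letters in capitals. VIM lies at chr10:17227991-17228240, AXL at chr19:41218973-41219222, CD44 at chr11:35138921-35139170 and CAV1 at chr7:116524759-116525008, all on the plus strand.
VIM: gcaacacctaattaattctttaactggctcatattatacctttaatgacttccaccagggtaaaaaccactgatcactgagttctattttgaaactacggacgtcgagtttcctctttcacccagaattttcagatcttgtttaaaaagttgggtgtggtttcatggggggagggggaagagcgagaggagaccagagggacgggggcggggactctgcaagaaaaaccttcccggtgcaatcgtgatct
AXL: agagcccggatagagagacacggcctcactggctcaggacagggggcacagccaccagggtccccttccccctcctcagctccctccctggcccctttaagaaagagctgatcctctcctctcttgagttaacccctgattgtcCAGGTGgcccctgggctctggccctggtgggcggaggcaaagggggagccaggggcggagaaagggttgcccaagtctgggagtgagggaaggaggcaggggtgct
CD44: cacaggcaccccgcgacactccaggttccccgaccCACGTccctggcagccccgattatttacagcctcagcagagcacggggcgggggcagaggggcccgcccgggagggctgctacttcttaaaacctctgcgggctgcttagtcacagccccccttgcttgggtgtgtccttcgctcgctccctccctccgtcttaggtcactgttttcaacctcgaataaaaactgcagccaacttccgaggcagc
CAV1: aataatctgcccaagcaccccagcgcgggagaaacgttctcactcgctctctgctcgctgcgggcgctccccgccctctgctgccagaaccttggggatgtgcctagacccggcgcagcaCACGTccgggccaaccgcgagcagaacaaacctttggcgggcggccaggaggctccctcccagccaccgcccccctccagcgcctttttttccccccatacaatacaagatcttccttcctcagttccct
The search covered both strands for ACGTG and GCGTG, the core letters bound by hypoxia-inducible factors, for CACCTG, an E-box form bound by ZEB and Snail factors, and for TGANTCA, the AP-1 motif. The VIM window held none of them. The CD44 and CAV1 windows each held 1 ACGTG on the minus strand, written here as its complement, and the AXL window 1 CACCTG on the minus strand. Among 35116 promoter windows of the same length, 18.5% held ACGTG, 32.2% GCGTG, 17.5% CACCTG and 6.57% TGANTCA. Of the other members, ZEB1 held 1 CACCTG, CDH2 held 1 GCGTG and FN1 held none, and SNAI2, TWIST1 and CDH1 were not matched in the table of promoters.

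VIM (chromosome 10, 17228259 to 17237593, plus strand, GENCODE release 29 on GRCh38) encodes vimentin, the intermediate filament protein of mesenchymal cells. It stood at 1161 and 407 RPKM in hypoxic and normoxic SUM1315, at 5.14 and 4.96 RPKM in SKBR3 and at 9.17 and 8.61 RPKM in T47D. The SUM1315 libraries did not overlap those of either luminal line. In hypoxic SUM1315 it was the gene with the 10th highest RPKM, and in normoxic SUM1315 the 81st. In a fit on log2(RPKM + 1) with line and oxygen level as terms, VIM was higher in SUM1315 than in SKBR3 by 6.83 ± 0.34 (SE; limma, adjusted p = 1.54e-06) and than in T47D by 6.12 ± 0.34 (adjusted p = 2.77e-06). SKBR3 and T47D differed by -0.71 ± 0.34, which did not pass (limma, adjusted p = 0.113) but did when the hypoxic (0.0191) or the normoxic SUM1315 library (0.0196) was left out of the fit. The antisense gene VIM-AS1 was at 0.892 and 1.06 RPKM in SUM1315. No source used here gives the strand setting, so reads of VIM and VIM-AS1 cannot be told apart where they overlap.

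These p-values rest on 6 libraries. The 2 libraries of a line differ in oxygen level, so the error is the spread left after both terms, moderated toward genes of like level, and it may be technical. Of the 12312 genes tested, 26.8% were lower in SUM1315 than in SKBR3 and 30.0% lower than in T47D, beside the shares that were higher. Between SKBR3 and T47D, 25.4% were higher and 30.8% lower in SKBR3. A call between lines was therefore common, and the size of the differences carries more than the call. That size is understated for a gene near or under 1 RPKM in a line, since the scale adds 1 to each RPKM. By mean RPKM, SUM1315 was 303-fold above SKBR3 for AXL and 155-fold for VIM, although VIM had the larger difference in the fit. A gene was tested if it reached 1 RPKM in at least 2 libraries. AXL, CD44, SNAI2 and ZEB1 met this through SUM1315 alone, CDH1 through T47D alone and FN1 through SKBR3 alone, so that their being called against the other lines was partly set by the filter.

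AXL (chromosome 19, 41219203 to 41261766, plus strand) encodes a receptor tyrosine kinase of the TAM family that is activated by the ligand GAS6. It was at 113 and 121 RPKM in hypoxic and normoxic SUM1315, at 0.430 and 0.344 RPKM in SKBR3 and at 0.833 and 0.799 RPKM in T47D. SUM1315 stood apart from both luminal lines, by a difference of 6.41 ± 0.15 against SKBR3 (limma, adjusted p = 1.65e-07) and of 6.02 ± 0.15 against T47D (adjusted p = 2.40e-07). Between the luminal lines, both SKBR3 values lay under both T47D values, but the difference of -0.39 ± 0.15 did not pass (limma, adjusted p = 0.0634).

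GAS6, the main ligand of AXL, did not follow the receptor. GAS6 was at 3.78 and 2.40 RPKM in hypoxic and normoxic SUM1315, at 0.156 and 0.109 RPKM in SKBR3 and at 44.1 and 27.9 RPKM in T47D. It was thus lower in SUM1315 than in T47D, with a log2(RPKM + 1) difference of -3.16 ± 0.18 (limma, adjusted p = 3.33e-06) and higher than in SKBR3 (1.83 ± 0.18, adjusted p = 5.64e-05). PROS1, which encodes protein S, a ligand of the related receptors, was at 3.84 and 5.12 RPKM in SUM1315 and at no more than 0.220 RPKM in the luminal lines. TYRO3, another TAM receptor gene, was at 2.85 to 6.80 RPKM in all 6 libraries. MERTK, the remaining TAM receptor gene, was under 1 RPKM in every library and was not tested.

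CD44 (chromosome 11, 35138870 to 35232402, plus strand) encodes the cell surface receptor for hyaluronan. It was at 62.6 and 45.9 RPKM in hypoxic and normoxic SUM1315, at 0.449 and 0.431 RPKM in SKBR3 and at 0.608 and 0.577 RPKM in T47D. The groups did not overlap, and SUM1315 was higher than SKBR3 by 5.24 ± 0.17 (limma, adjusted p = 3.19e-07) and than T47D by 5.10 ± 0.17 (adjusted p = 3.83e-07). The luminal lines differed by -0.15 ± 0.17, which did not pass (limma, adjusted p = 0.50). CD44 is known for its splice variants, which the gene-level values do not separate.

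Of 8 genes for CD44 partners and hyaluronan synthesis, 6 were tested, 3 of them having passed the filter through SUM1315 alone. All 6 were higher in SUM1315 than in SKBR3, beside 44.0% of all genes, and than in T47D, beside 41.2%. Their median log2(RPKM + 1) difference was 1.81 against SKBR3 and 1.91 against T47D, beside 0.25 and 0.18 over all genes. MSN (moesin, a linker of CD44 to actin) was at 16.5 and 10.8 RPKM in hypoxic and normoxic SUM1315 and at most 0.435 RPKM in the luminal lines. SPP1, which encodes osteopontin, a secreted CD44 ligand, was at 2.78 and 4.33 RPKM in SUM1315 and at most 0.0179 RPKM elsewhere. The smallest differences against T47D were those of RDX (radixin; 0.89 ± 0.16) and HMMR, another hyaluronan receptor gene (0.97 ± 0.18).

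CAV1 (chromosome 7, 116524785 to 116561184, plus strand) encodes caveolin-1, the coat protein of the membrane pits called caveolae. It stood at 420 and 388 RPKM in hypoxic and normoxic SUM1315, at 4.37 and 3.33 RPKM in SKBR3 and at 2.47 and 2.80 RPKM in T47D. In SUM1315 it was the gene with the 68th and 88th highest RPKM. SUM1315 was higher than SKBR3 by 6.39 ± 0.18 (limma, adjusted p = 2.02e-07) and than T47D by 6.80 ± 0.18 (adjusted p = 2.40e-07). Both SKBR3 values were above both T47D values, and the difference of 0.41 ± 0.18 did not pass (limma, adjusted p = 0.0843).

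Some other caveola genes were high in SUM1315 too. Of 7 listed, CAV3 and CAVIN2, at 0 in both SUM1315 libraries, did not reach the filter, and 5 were tested. Of the 5, 4 were higher and 1 was lower in SUM1315 than in SKBR3, beside 44.0% and 26.8% of all genes. Against T47D, 4 were higher and none lower, beside 41.2% and 30.0%. The filter was passed through SUM1315 alone by 2 of the 5. CAVIN3, a coat component, was at 130 and 68.2 RPKM in hypoxic and normoxic SUM1315, at 0.0929 and 0.231 RPKM in SKBR3 and at 0.405 and 0.346 RPKM in T47D. CAVIN1, required for caveolae to form, was at 99.6 and 139 RPKM in SUM1315 and at most 5.50 RPKM in the luminal lines. EHD2, an ATPase at the neck of caveolae, was higher in SUM1315 than in T47D by 2.58 ± 0.17 (limma, adjusted p = 6.05e-06). PACSIN2, which encodes a membrane-curving protein, was lower in SUM1315 than in SKBR3 (-0.47 ± 0.17; limma, adjusted p = 0.0327) and did not pass against T47D (-0.06 ± 0.17, adjusted p = 0.769).

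Of 6 intermediate filament partners of vimentin, only SYNM (synemin) and PLEC (plectin, a cytolinker) were tested, and NES, DES, GFAP and INA did not reach the filter. SYNM was tested through SUM1315 alone, with 1.85 and 1.22 RPKM in SUM1315 and at most 0.215 RPKM elsewhere, so its calls were partly set by the filter. SYNM was higher in SUM1315 than in T47D by 1.28 ± 0.13 (limma, adjusted p = 5.15e-05) and than in SKBR3 by 1.06 ± 0.13 (adjusted p = 0.000143). PLEC was higher than in T47D (1.00 ± 0.23, adjusted p = 0.00506) and did not pass against SKBR3 (0.41 ± 0.23, adjusted p = 0.143).

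Although these genes were called as low in the luminal lines, most were still measured there at a small share of the SUM1315 level. As line means, VIM in SKBR3 was 0.644% of its SUM1315 level, AXL 0.330%, CD44 0.811% and CAV1 0.952%. In T47D the shares were 1.13% for VIM, 0.697% for AXL, 1.09% for CD44 and 0.651% for CAV1. The shares of these 4 genes lay closer together than their SUM1315 means, which ran from 54.2 RPKM for CD44 to 784 RPKM for VIM. Of 831 genes at 50 RPKM or more in both SUM1315 libraries, 26 were under 1% of that level in SKBR3 and 24 in T47D. None was under 0.1% in either line, and the lowest shares were 0.153% in SKBR3 and 0.324% in T47D. In the opposite direction, 25 of 913 genes at 50 RPKM or more in SKBR3 were under 0.1% in SUM1315, and none of 959 such genes of T47D was, the lowest being at 0.130%. Between the luminal lines, 11 of the 959 genes of T47D were under 0.1% in SKBR3. Of the 913 genes of SKBR3, 6 were under 0.1% in T47D, and the lowest share was 0% both ways. Where the reads behind the lowest shares came from was not tested, so a level of that size in SKBR3 or T47D is not read here as expression.

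**Figure D2:**
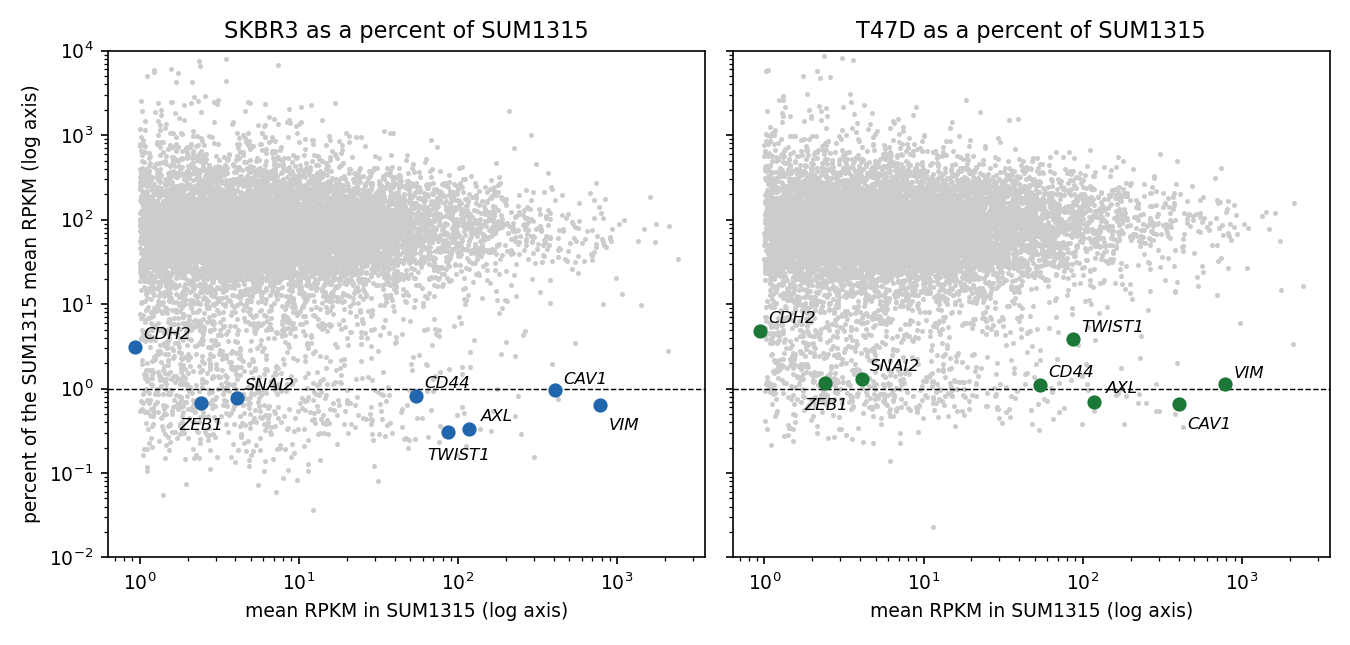
Line mean RPKM of SKBR3 (left) and T47D (right) as a percent of the SUM1315 mean (log axis), against the SUM1315 mean RPKM (log axis), with all genes at 1 RPKM or more in SUM1315 and above 0 in the other line as grey points, the dashed line at 1%. VIM, AXL, CD44, CAV1, SNAI2, ZEB1, TWIST1 and CDH2 are coloured, and TWIST1 lies at 0.302% in SKBR3 and at 3.89% in T47D, while AXL, CD44, VIM and CAV1 stay near 1% or under it in both.

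TWIST1 (chromosome 7, 19020991 to 19117672, minus strand) encodes a basic helix-loop-helix factor that promotes EMT. It was the most abundant of the 3 transcription factor genes among the members, with 80.7 and 92.5 RPKM in hypoxic and normoxic SUM1315, 0.254 and 0.270 RPKM in SKBR3 and 3.85 and 2.89 RPKM in T47D. The 3 lines were separate in every library, with T47D between the others. SUM1315 was higher than SKBR3 by 6.11 ± 0.18 (limma, adjusted p = 2.14e-07) and than T47D by 4.33 ± 0.18 (adjusted p = 7.28e-07). TWIST1 was also lower in SKBR3 than in T47D, by a difference of -1.78 ± 0.18 (limma, adjusted p = 0.000112). Its T47D level was 3.89% of that in SUM1315, with a 95% exact Poisson interval of 3.44% to 4.40% that covers counting error only.

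SNAI2 (chromosome 8, 48917604 to 48921740, minus strand) encodes Slug, a zinc finger repressor of CDH1. It was at 3.96 and 4.20 RPKM in hypoxic and normoxic SUM1315, at 0.0441 and 0.0182 RPKM in SKBR3 and at 0.0549 and 0.0505 RPKM in T47D. On its transcript the luminal values stand for about 4 reads in SKBR3 and 6 in T47D over both libraries. SUM1315 was higher than SKBR3 by 2.30 ± 0.11 (limma, adjusted p = 1.18e-06) and than T47D by 2.27 ± 0.11 (adjusted p = 1.31e-06). The SKBR3 level was 0.764% of that in SUM1315 (exact Poisson interval 0.188% to 1.76%) and the T47D level 1.29% (0.481% to 2.85%).

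ZEB1 (chromosome 10, 31318495 to 31529814, plus strand) encodes a repressor of epithelial genes. It was at 2.58 and 2.25 RPKM in hypoxic and normoxic SUM1315, at 0.00836 and 0.0242 RPKM in SKBR3 and at 0.0320 and 0.0242 RPKM in T47D. These stand for about 7 reads in SKBR3 and 8 in T47D, and the luminal lines overlapped. SUM1315 was higher than SKBR3 by 1.75 ± 0.10 (limma, adjusted p = 3.52e-06) and than T47D by 1.73 ± 0.10 (adjusted p = 4.06e-06). Because the scale adds 1 to each RPKM, these differences understate the change of a gene at this level. The antisense gene ZEB1-AS1 was at 2.93 and 1.23 RPKM in SUM1315 and at 1.00 and 0.558 RPKM in T47D, and without the strand setting shared reads cannot be told apart.

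Among 14 other EMT transcription factor genes, 11 were tested, 7 of them through SUM1315 alone. Of the 11, 9 were higher and 1 lower in SUM1315 than in SKBR3, beside 44.0% and 26.8% of all genes. Against T47D, 10 were higher and 1 lower, beside 41.2% and 30.0%. TWIST2, the closest relative of TWIST1, was at 9.50 and 9.30 RPKM in hypoxic and normoxic SUM1315 and at most 0.0963 RPKM in the luminal lines. HMGA2, an architectural chromatin factor, was at 4.91 and 4.42 RPKM in SUM1315 and at most 0.212 RPKM elsewhere. KLF8, a zinc finger factor, was the gene called lower, with 0.0107 and 0.0109 RPKM in SUM1315, 1.26 and 1.54 RPKM in SKBR3 and 1.32 and 1.77 RPKM in T47D. SNAI1, of the Snail family, did not pass between SUM1315 and SKBR3 (0.04 ± 0.16; limma, adjusted p = 0.850). FOXC2 and FOXQ1, listed at 0 in both SUM1315 libraries, and SNAI3, at 0.157 and 0.106 RPKM there, did not reach the filter. The smallest passing difference in the same direction as TWIST1 against T47D was that of FOXC1, a forkhead factor (0.49 ± 0.11; limma, adjusted p = 0.00471).

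CDH1 (chromosome 16, 68737225 to 68835548, plus strand) encodes E-cadherin, the adhesion protein of epithelial junctions. It was at 0.0372 and 0.0227 RPKM in hypoxic and normoxic SUM1315, at 0 and 0.0147 RPKM in SKBR3 and at 10.8 and 6.12 RPKM in T47D. The hypoxic SKBR3 library held no read, which allows up to 0.0222 RPKM (3 reads). T47D stood apart from both other lines, while SUM1315 and SKBR3 rested on about 6 and 2 reads. CDH1 was lower in SUM1315 than in T47D (-3.15 ± 0.19; limma, adjusted p = 4.03e-06) and lower in SKBR3 than in T47D (-3.18 ± 0.19, adjusted p = 8.41e-06). SUM1315 and SKBR3 differed by 0.03 ± 0.19, which did not pass (limma, adjusted p = 0.891). As a share of the T47D level, SUM1315 was at 0.354% (exact Poisson interval 0.122% to 0.722%) and SKBR3 at 0.0870% (0.00877% to 0.262%).

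CDH2 (chromosome 18, 27950966 to 28177446, minus strand) encodes N-cadherin, which many mesenchymal carcinoma cells carry in place of E-cadherin. It was at 1.00 and 0.870 RPKM in hypoxic and normoxic SUM1315, at 0.0548 and 0.00348 RPKM in SKBR3 and at 0.0210 and 0.0676 RPKM in T47D. Only 1 library reached 1 RPKM, so CDH2 was not tested. Both SUM1315 values were above all 4 luminal values, which together stand for about 16 reads. The SKBR3 level was 3.12% of that in SUM1315 (exact Poisson interval 1.24% to 6.36%) and the T47D level 4.74% (2.15% to 8.91%).

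SKBR3 had CDH1 near 0 but other epithelial genes at high levels, unlike SUM1315. Of 20 epithelial genes known to be repressed in EMT, all were tested. All 20 reached 1 RPKM in each luminal library, but only 4 in each SUM1315 library. Their being called lower in SUM1315 was thus partly set by the filter. In SUM1315, 19 were lower and none higher than in SKBR3 (median -6.06), beside 26.8% of all genes called lower. Against T47D, 19 were lower (median -5.18), beside 30.0% of all genes. OCLN (occludin, of tight junctions) was the gene that was higher in SUM1315 than in T47D, by 0.50 ± 0.14 (limma, adjusted p = 0.0117). CLDN3, a tight junction claudin gene, was at 1.32 and 1.56 RPKM in hypoxic and normoxic SUM1315, at 149 and 173 RPKM in SKBR3 and at 472 and 535 RPKM in T47D. KRT19, a keratin gene of simple epithelia, was at 1.09 and 1.48 RPKM in SUM1315, at 1793 and 645 RPKM in SKBR3 and at 611 and 283 RPKM in T47D. OVOL1, a repressor of EMT, was at 0.0119 and 0 RPKM in SUM1315, at 6.31 and 8.07 RPKM in SKBR3 and at 2.67 and 2.08 RPKM in T47D.

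The partners of the cadherins did not share 1 direction. Of 8 catenin and cadherin genes besides CDH1 and CDH2, 6 were tested, and 2 were higher and 3 lower in SUM1315 against each luminal line. Over all genes, 44.0% were higher and 26.8% lower than in SKBR3, and 41.2% and 30.0% than in T47D. With so few genes, the counts are not read as a trait of the list. CDH13 was tested through SUM1315 alone and CDH3 through T47D alone, so their calls were partly set by the filter. JUP encodes plakoglobin, a junctional catenin, and was at 0.331 and 0.112 RPKM in hypoxic and normoxic SUM1315, at 57.7 and 27.7 RPKM in SKBR3 and at 26.0 and 11.3 RPKM in T47D. JUP was thus high in SKBR3, where CDH1 was near 0. CDH13, the gene of a cadherin without a cytoplasmic tail, was at 3.04 and 3.78 RPKM in SUM1315 and at most 0.0332 RPKM in the luminal lines. CTNNB1, which encodes beta-catenin, was at 5.19 and 3.87 RPKM in SUM1315, at 2.27 and 1.59 RPKM in SKBR3 and at 3.80 and 2.22 RPKM in T47D, and was higher in SUM1315 than in SKBR3 (0.92 ± 0.15; limma, adjusted p = 0.000831) and than in T47D (0.48 ± 0.15, adjusted p = 0.0197). CDH3 (P-cadherin) was lower in SUM1315 than in T47D (-1.20 ± 0.13; limma, adjusted p = 7.80e-05) and was listed at 0 in both SKBR3 libraries.

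FN1 (chromosome 2, 215360440 to 215436172, minus strand) encodes fibronectin, a matrix protein that is commonly high in mesenchymal cells. Here it was lowest in SUM1315, with 0.285 and 0.356 RPKM in the hypoxic and normoxic library, against 1.75 and 1.26 RPKM in SKBR3 and 0.661 and 0.604 RPKM in T47D. The 3 lines did not overlap. FN1 was lower in SUM1315 than in SKBR3 (-0.92 ± 0.13; limma, adjusted p = 0.000309), and the difference against T47D of -0.31 ± 0.13 did not pass (adjusted p = 0.0569). The difference against T47D passed without the normoxic SUM1315 library (limma, adjusted p = 0.0298) and without the hypoxic (0.0369) or normoxic SKBR3 library (0.0373). SKBR3 was higher than T47D by 0.61 ± 0.13 (limma, adjusted p = 0.00405), a call that was lost without the filter on low values (0.0601). On the long FN1 transcript these levels stand for about 56 to 430 reads per library, more than for SNAI2 or ZEB1 in the luminal lines.

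Receptors of fibronectin did not share its order. Of 7 listed, 6 were tested, 2 through SUM1315 alone and 1, ITGB6, through SKBR3 alone. In SUM1315, 4 were higher and 2 lower than in SKBR3, beside 44.0% and 26.8% of all genes. Against T47D, 4 were higher and 1 lower, beside 41.2% and 30.0%. With so few genes, the counts are not read as a trait of the list. ITGB6, a beta subunit gene of epithelial cells, was at 0.149 and 0.175 RPKM in hypoxic and normoxic SUM1315, at 2.42 and 2.71 RPKM in SKBR3 and at 0.327 and 0.0788 RPKM in T47D. ITGB1, the common beta subunit, was at 37.0 and 38.4 RPKM in hypoxic and normoxic SUM1315, at 5.01 and 3.80 RPKM in SKBR3 and at 4.07 and 4.92 RPKM in T47D. ITGA4 was at 4.59 and 3.25 RPKM in SUM1315 and at most 0.0675 RPKM elsewhere. SDC4, a proteoglycan coreceptor gene, was lower in SUM1315 than in T47D (-2.27 ± 0.20; limma, adjusted p = 3.01e-05) and than in SKBR3 (-2.18 ± 0.20, adjusted p = 3.47e-05).

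Among 24 mesenchymal matrix and contractile genes, COL3A1 and COL5A1 were listed at 0 in both SUM1315 libraries and did not reach the filter. Nor did SPARC, POSTN, FBN1 and CNN1, which were at most 0.561 RPKM in SUM1315. The counts below leave these genes out. The other 18 were tested, 7 of them through SUM1315 alone. Of the 18, 14 were higher and 2 lower in SUM1315 than in SKBR3 (median 1.79), beside 44.0% and 26.8% of all genes. Against T47D, 15 were higher and 2 lower (median 1.78), beside 41.2% and 30.0%. TPM2, a tropomyosin gene, was at 103 and 115 RPKM in hypoxic and normoxic SUM1315 and at most 1.09 RPKM in the luminal lines. MYL9, a myosin light chain gene, went the other way, with 0.421 and 0.443 RPKM in SUM1315, 4.96 and 5.07 RPKM in SKBR3 and 139 and 119 RPKM in T47D. S100A4 was lower in SUM1315 than in SKBR3 by a larger difference (-2.80 ± 0.25; limma, adjusted p = 3.12e-05). It was higher in SUM1315 than in T47D (1.81 ± 0.25; limma, adjusted p = 0.000354). THBS1, the gene of the matrix protein thrombospondin-1, was lower in SUM1315 than in T47D (-1.25 ± 0.19; limma, adjusted p = 0.000559).

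**Figure D3:**
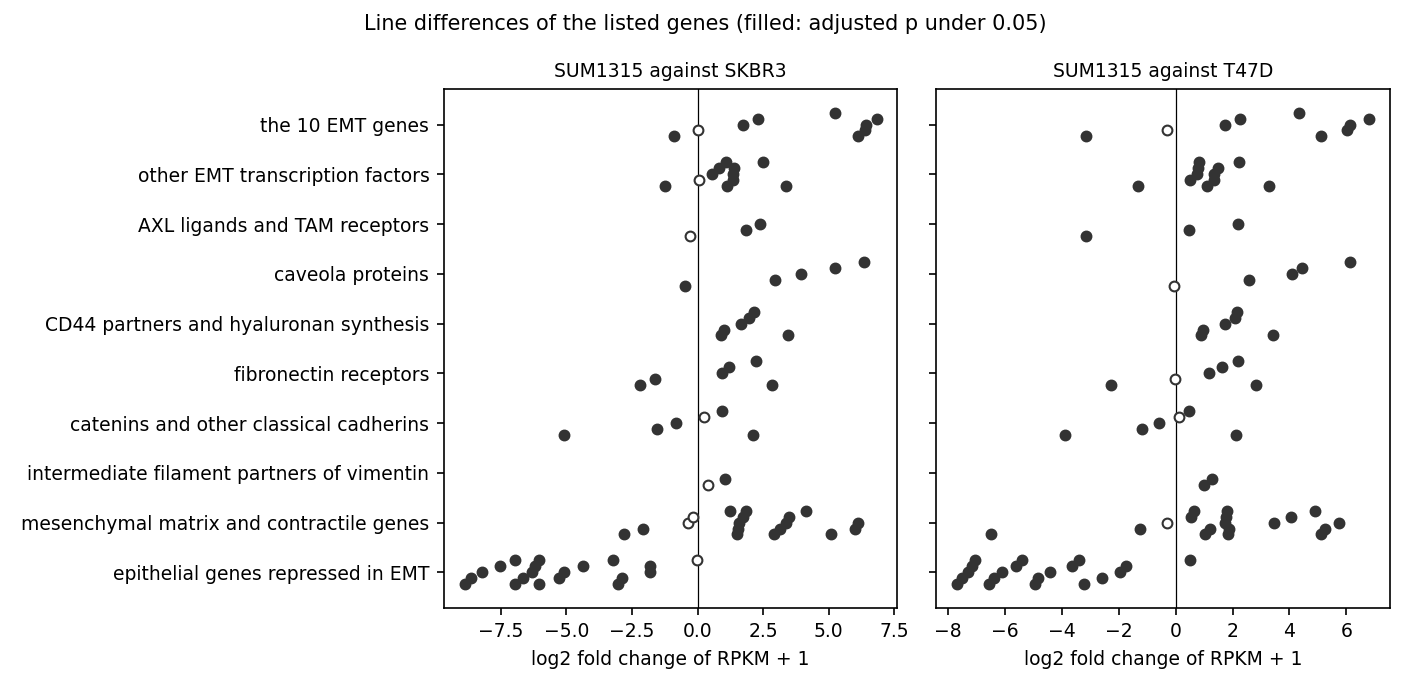
Difference in log2(RPKM + 1) of SUM1315 against SKBR3 (left) and of SUM1315 against T47D (right) for each tested gene of the 10 EMT genes and of the lists around them, with filled points at adjusted p under 0.05 (limma). The epithelial list lies at a median of -6.06 and -5.18, and the matrix list at 1.79 and 1.78.

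Hypoxia was compared with normoxia over the 3 lines in the same fit. Across all 12312 genes, 1.70% were higher and 0.544% lower in hypoxia at adjusted p under 0.05. Of the 9 members tested, none passed in either direction, and none had an unadjusted p under 0.05. VIM had the largest difference, 0.54 ± 0.28 (SE; limma, adjusted p = 0.286), and was higher in the hypoxic library of all 3 lines. CDH1 followed with 0.24 ± 0.16 (limma, adjusted p = 0.378) and CD44 with 0.16 ± 0.14 (adjusted p = 0.503). The other 6, CAV1, FN1, ZEB1, TWIST1, AXL and SNAI2, lay between -0.01 and 0.10, with adjusted p between 0.638 and 0.974. A difference in 1 line adds to the error of this fit, so the lines are also given one by one.

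In SUM1315, VIM was 2.85-fold higher in the hypoxic library (1161 RPKM against 407 RPKM in the normoxic one), a log2 ratio of 1.51. With 1 library on each side, this ratio has no test. Of 10628 genes at a mean of 1 RPKM or more in SUM1315, 3.62% were at least 2-fold higher and 0.301% at least 2-fold lower in hypoxia, and 125 genes had a larger ratio than VIM. VIM was the only member past 2-fold among those at a line mean of 1 RPKM or more. In the luminal lines its log2 ratio was 0.05 in SKBR3 and 0.09 in T47D. CD44 had a log2 ratio of 0.45 in SUM1315, ZEB1 0.20, CAV1 0.12, SNAI2 -0.08, AXL -0.09 and TWIST1 -0.20. Apart from VIM, the genes that set SUM1315 apart thus had hypoxic and normoxic values that were close to each other beside the distance to the luminal lines.

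In T47D, CDH1 was at 10.8 RPKM in hypoxia against 6.12 RPKM in normoxia, a 1.76-fold difference. Of 10237 genes, 8.79% had a larger ratio, and 5.48% were at least 2-fold higher and 2.02% at least 2-fold lower. TWIST1, which is known to repress CDH1, had a log2 ratio of 0.42 there. In SKBR3, where 4.24% of 9790 genes were at least 2-fold higher and 1.63% at least 2-fold lower, FN1 had a log2 ratio of 0.47 and CAV1 of 0.39. Neither passed 2-fold, and 14.9% of the genes had a larger ratio than FN1.

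**Figure D4:**
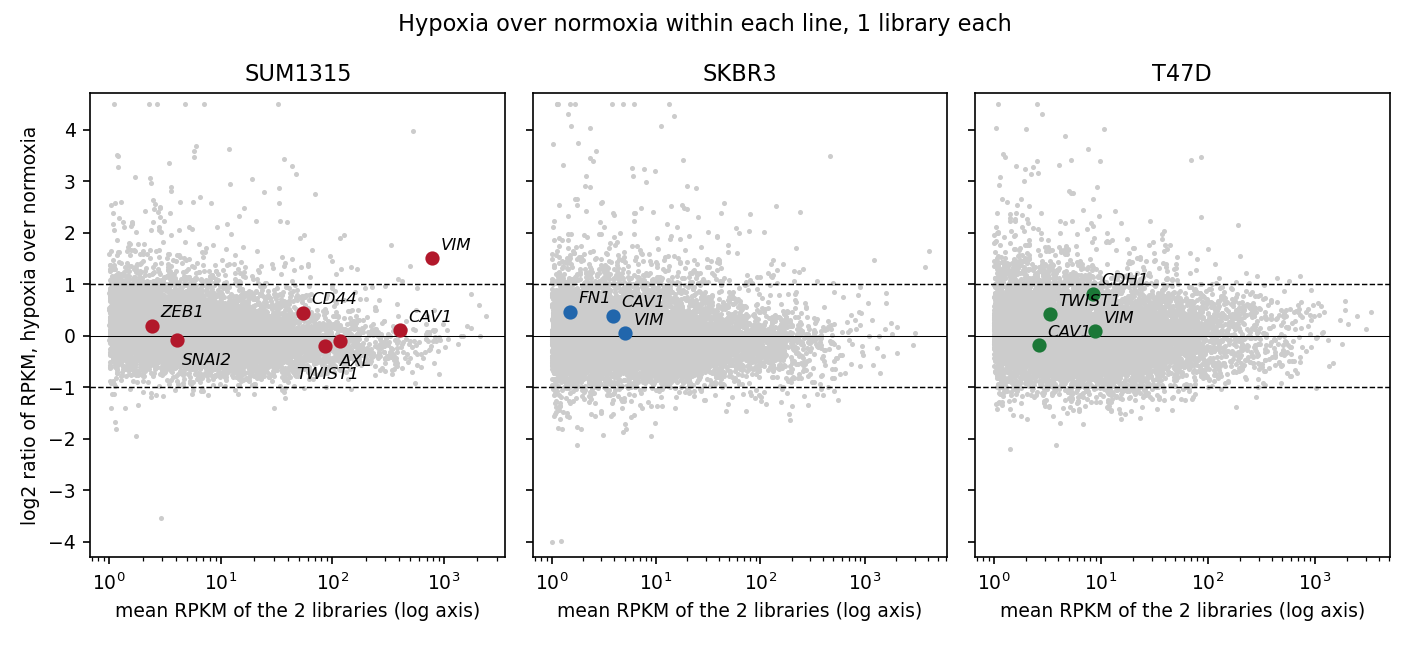
Log2 ratio of hypoxic to normoxic RPKM in SUM1315, SKBR3 and T47D for the members at a line mean of 1 RPKM or more (named points), over all genes at that level (grey, with ratios beyond the axis ends drawn at the ends) and with lines at a 2-fold change. VIM in SUM1315, at 1.51, is the only named point past a line.

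Some genes that work with the members did rise under hypoxia. Of the listed partners, 4 passed: 1 of 11 EMT factor genes, 1 of 5 caveola genes, 1 of 6 CD44 partner genes and 1 of 6 catenin and cadherin genes. None passed among 3 genes of AXL ligands and TAM receptors, 6 of fibronectin receptors and 2 of vimentin partners. No listed gene was called lower. Over all genes, 1.70% were called higher and 0.544% lower, and the counts were not tested against these shares. SOX9, an EMT-linked transcription factor gene, was at 8.66, 6.53 and 3.49 RPKM in hypoxic SUM1315, SKBR3 and T47D, against 4.51, 1.26 and 1.56 RPKM in the normoxic cells, and rose by 1.12 ± 0.20 (limma, adjusted p = 0.0400). EHD2, of caveolae, was at 51.0, 6.25 and 7.23 RPKM in hypoxia, against 26.4, 2.30 and 3.83 RPKM in normoxia, and rose by 0.94 ± 0.14 (limma, adjusted p = 0.0266). Both genes were higher in the hypoxic library of each line.

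EZR encodes ezrin, which links CD44 to actin. It was at 68.2, 43.6 and 14.2 RPKM in hypoxic SUM1315, SKBR3 and T47D, against 39.9, 17.4 and 9.18 RPKM in the normoxic cells, and rose by 0.87 ± 0.17 (limma, adjusted p = 0.0479). CTNNA1 encodes alpha-catenin, which links cadherins to actin. It was at 7.90, 28.7 and 7.59 RPKM in hypoxia, against 4.92, 13.9 and 4.22 RPKM in normoxia, and rose by 0.77 ± 0.14 (limma, adjusted p = 0.0425). JUP was 2.09-fold higher in SKBR3 and 2.30-fold higher in T47D, and over the 3 lines its difference of 0.81 ± 0.19 did not pass (limma, adjusted p = 0.0697). None of the 20 epithelial genes passed, 7 of them having an unadjusted p under 0.05, and none of the 18 tested matrix and contractile genes passed. Within the luminal lines, KRT19 was 2.78-fold higher in SKBR3 and 2.16-fold higher in T47D in the hypoxic library, and KRT8, another keratin gene of simple epithelia, 2.44-fold and 2.01-fold. OVOL2, a relative of OVOL1, was at 3.97 RPKM in hypoxic against 10.1 RPKM in normoxic SKBR3 and at 3.41 against 7.45 RPKM in T47D. These single pairs of libraries were not tested. The calls for EHD2, EZR and CTNNA1 were lost when any 1 line was left out, with adjusted p of 0.0757 to 0.130 for EHD2, 0.105 to 0.138 for EZR and 0.0980 to 0.163 for CTNNA1. That for SOX9 was kept without SUM1315 (0.0395) and lost without SKBR3 (0.130) or T47D (0.116).

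**Figure D5:**
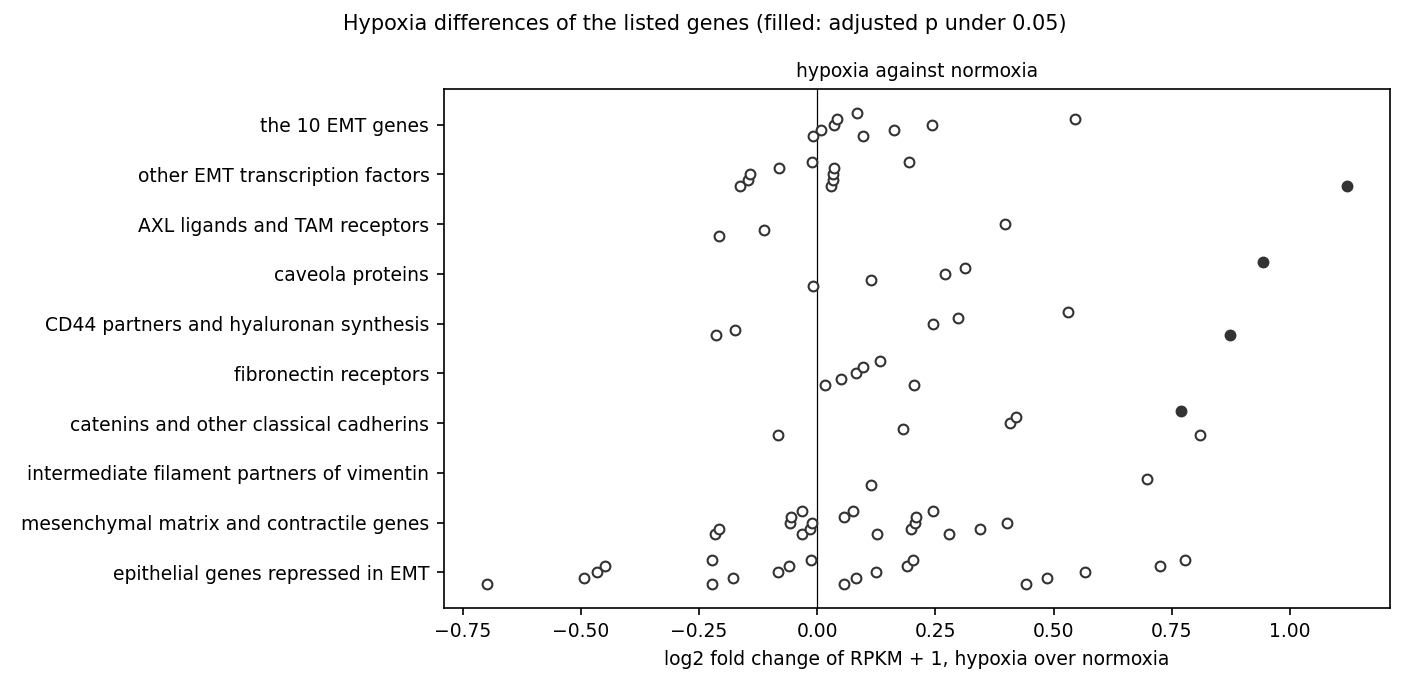
Difference in log2(RPKM + 1) of hypoxia against normoxia over the 3 lines for each tested gene of the 10 EMT genes and of the lists around them, with filled points at adjusted p under 0.05 (limma). The members' median is 0.08 beside 0.02 over all genes, and SOX9, EHD2, EZR and CTNNA1 are the filled points.

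The genes with the profile most like that of a member were found by the root mean square difference of log2(RPKM + 1) over the 6 libraries, after each gene was centred on its own mean. The measure is a description, and all points share the 3 lines. Among 12311 genes, those nearest to VIM were CAVIN3 (0.286), GPX1 (0.342), MT1E (0.394), EMP3 (0.424) and FOSL1 (0.441). Those nearest to AXL were MT1E (0.122), TPM2 (0.135), FGF5 (0.194), EMP3 (0.196) and GPX1 (0.211). MT1E, EMP3 and GPX1 were near both genes. Those nearest to CDH1 were ARTN (0.0902), GREB1 (0.0912), CXCL14 (0.151), EDARADD (0.156) and AP000547.3 (0.166).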

How the data were processed

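Polysome RNA was sequenced from 6 libraries. The deposited table holds 1 column per library. Its header names no unit, and the values were read as RPKM made by the authors: among genes with 1 annotated transcript (GENCODE release 29), RPKM times length was a whole multiple of 1 step per library for 60.4% to 63.3% of 3716 to 4075 genes per library (tolerance 0.02 of a step, 4% by chance). The counting annotation, and if a step is 1 read or 1 pair, is not stated in the labels or the file. Trimmomatic, HISAT2, SAMtools, Partek and GRCh38 (hg38) are named in the submitters' processing notes. RPKM are shares of a library, so a change in total polysome RNA cannot be seen.

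The 12312 genes that reached 1 RPKM in 2 or more libraries were fitted with limma 3.58.1 (R 4.3.3) on log2(RPKM + 1), with line and oxygen level as terms, a mean-variance trend, two-sided tests and Benjamini-Hochberg adjustment over all tested genes (threshold 0.05). Residual degrees of freedom were 2 and prior ones 5.72. The line is the pairing of the labels; within a line, deviations from the mean of each oxygen level correlated across genes at 0.945 to 0.971. Within a line, ratios of 1 library to 1 were not tested and were called past 2-fold. Approximate reads use the longest transcript, and their intervals and the limit of 3 reads cover counting error only. Other pseudocounts, filters, scaling, trend, block and left-out libraries were tried. The fit was tested on simulated data.

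The 10 genes and the 15 lists beside them were chosen with earlier results of these data known. Named were the 10 genes, some of the check genes, from each other list the genes that passed under hypoxia and the 2 highest and 2 lowest in SUM1315 against T47D, and the 5 nearest profiles of VIM, AXL and CDH1. MERTK, KRT8, OVOL2, CDH5, JUP and KRT19 under hypoxia, and the antisense genes were named besides, after their values were seen. So were S100A4, SNAI1 and the genes named as not reaching the filter. Of the matrix list, 1 gene that this rule names is not reported here.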

Additional observations from a re-analysis of the deposited data

Results flagged for a closer look

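CAV1 differed in the direction of its hypoxic to normoxic ratio between the lines: the log2 ratio was 0.12 in SUM1315 and 0.39 in SKBR3, but -0.18 in T47D. TWIST1 had a log2 ratio of -0.2 in SUM1315 and of 0.42 in T47D. Each ratio rests on a single pair of libraries, and the difference between the lines was not tested.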

How the results depend on the processing

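The number of genes called between hypoxia and normoxia, 276 in all, depended most on the processing. It was 500 with a pseudocount of 0.1 and 30 with 5, 654 where 3 libraries had to reach 1 RPKM, 0 without a filter (limma; 2715 at an unadjusted p under 0.05) and 0 with no replicate block for the line (limma; 70 at an unadjusted p under 0.05). With 1 line left out it was 5 (without SKBR3) to 135 (without SUM1315). The cause was not tested. With a pseudocount of 1 in the within-line ratio, genes past 2-fold numbered 191 in place of 417 in SUM1315, 293 in place of 575 in SKBR3 and 337 in place of 768 in T47D. Counts between lines stayed within 1.5 times, and median-ratio scaling moved the median of all genes from 0.25 to 0.07 (SUM1315 against SKBR3) and from 0.18 to 0.02 (against T47D). Over these alternatives, the adjusted p (limma) of FN1 between SUM1315 and T47D ran from 0.0175 (pseudocount 0.1) to 0.300 (without hypoxic SUM1315), and was 0.0404 with that scaling. That of AXL between SKBR3 and T47D ran from 0.00431 (pseudocount 0.1) to 0.443 (pseudocount 5), that of CAV1 from 0.0482 to 0.417, that of VIM from 0.0191 to 0.601 and that of FN1 from 0.00196 to 0.0601 (no filter). No other call of a member moved across the threshold. Levels under about 0.1 RPKM rest on a few reads, which limits CDH1, CDH2, SNAI2 and ZEB1 in the lines where they are low.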

Other observations

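Markers of endothelial cells were near 0 in most libraries, with an exception in SKBR3. CDH5, the endothelial cadherin gene, was at 0.970 and 0.620 RPKM in hypoxic and normoxic SKBR3 and at 0 in both SUM1315 libraries. It was chosen after its values were seen and did not reach the filter.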
